A study of Mus musculus with 96 samples.

Results

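A set of 9 genes that mark the making of red blood cells was followed through liver RNA-seq of mouse fetuses, their mothers and adult offspring: Gata1, Klf1, Epor, Alas2, Hbb-bs, Slc4a1, Epb42, Rhag and Ermap. They were chosen by name from the 24066 genes with a single entry in the tables, and each was present in all 8 tables. The study housed pregnant C57BL/6J mice on a control schedule of 12 h of light and 12 h of darkness, or on a schedule whose phase was moved 8 h earlier at intervals of 5 days, during pregnancy only. Liver was taken at zeitgeber times (ZT, hours after lights on) 0, 6, 12 and 18, with 3 libraries for each of 32 groups and 96 in all. The 8 arms of 12 libraries each were control and shifted mothers, fetuses of control and of shifted mothers, and male offspring of control or shifted mothers fed from the age of 4 weeks, for 12 weeks, with low-fat or high-fat diet. The sources used here give neither the day of gestation nor the sex, pooling or mother of each fetus, and do not say whether a group's 3 libraries were separate animals. The p-values therefore measure the spread between these libraries, which may be technical. Each arm came in its own table, so arm and table cannot be told apart.

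In the fetus the liver is the main site of red cell production, a role that passes to the bone marrow around birth. Erythropoietin binds its receptor Epor on red cell precursors and keeps them alive and dividing, while the transcription factors Gata1 and Klf1 switch on the genes of the red cell. Alas2 catalyses the first step of heme synthesis in these cells, and adult beta-globin chains such as Hbb-bs carry the heme. Slc4a1 (band 3, the anion exchanger), Epb42 (protein 4.2, which ties band 3 to the skeleton), Rhag (the Rh-associated glycoprotein) and Ermap (a red cell surface protein of the immunoglobulin superfamily) belong to the cell membrane.

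In GENCODE M21 on GRCm38 (mm10) the members lie on 8 chromosomes, with Gata1 and Alas2 both on the X chromosome. Gata1 spans chrX:7959260-7978071 and Klf1 chr8:84901928-84905291. Epor spans chr9:21958897-21963506, Alas2 chrX:150547375-150570638 and Hbb-bs chr7:103826534-103828096. Slc4a1 spans chr11:102348824-102366203, Epb42 chr2:121017891-121037072, Rhag chr17:40811126-40840754 and Ermap chr4:119175457-119190011. Epb42 is listed under its older symbol Epb4.2. RefSeq promoter windows (GRCm38.p6) matched 8 of the 9 members, and Slc4a1 is named only. In the 250 bases before the start, a GATA motif (AGATAA as well as AGATAG, and likewise TGATAA along with TGATAG, on either strand) was found in 7 of these 8 windows, all except that of Gata1, against 26.5% of all 32851 windows. A second motif, CCNCNCCC on either strand, the kind of letters bound by Klf1, was found in 4 of the 8, those of Gata1, Epor, Alas2 and Hbb-bs, against 45.9% of all windows. A match describes letters only and is not a measured binding site. The upstream stretches of a regulator, the receptor, the heme enzyme and a pair of membrane genes are shown. Each has a GATA match and at least 150 bases outside the annotated gene. Capitals mark the GATA motif, which reads on the reverse strand in each of the 5, and each stretch is given 5′ to 3′ on the gene's own strand. They cover chr8:84901732-84901927 (plus strand) for Klf1, chr9:21963577-21963826 (minus) for Epor, chrX:150547167-150547374 (plus) for Alas2, chr17:40810899-40811125 (plus) for Rhag and chr4:119190012-119190245 (minus) for Ermap. The capitals begin 80, 54, 86, 31 and 67 bases before the RefSeq start, in that order.
Klf1: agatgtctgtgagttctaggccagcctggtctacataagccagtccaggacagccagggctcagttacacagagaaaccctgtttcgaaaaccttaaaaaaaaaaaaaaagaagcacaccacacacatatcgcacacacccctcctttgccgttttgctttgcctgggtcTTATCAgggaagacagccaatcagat
Epor: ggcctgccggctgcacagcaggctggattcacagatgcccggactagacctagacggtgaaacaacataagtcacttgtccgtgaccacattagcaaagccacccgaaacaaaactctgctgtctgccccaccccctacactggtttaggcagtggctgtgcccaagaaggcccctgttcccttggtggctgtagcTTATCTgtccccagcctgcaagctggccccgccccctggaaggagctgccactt
Alas2: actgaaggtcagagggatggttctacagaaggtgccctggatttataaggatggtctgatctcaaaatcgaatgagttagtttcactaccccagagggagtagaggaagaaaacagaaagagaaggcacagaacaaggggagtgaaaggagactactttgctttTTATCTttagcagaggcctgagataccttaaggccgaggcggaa
Rhag: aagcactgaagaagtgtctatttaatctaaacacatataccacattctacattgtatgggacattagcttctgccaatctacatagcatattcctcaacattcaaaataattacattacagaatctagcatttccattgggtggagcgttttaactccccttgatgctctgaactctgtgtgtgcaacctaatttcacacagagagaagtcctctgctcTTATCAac
Ermap: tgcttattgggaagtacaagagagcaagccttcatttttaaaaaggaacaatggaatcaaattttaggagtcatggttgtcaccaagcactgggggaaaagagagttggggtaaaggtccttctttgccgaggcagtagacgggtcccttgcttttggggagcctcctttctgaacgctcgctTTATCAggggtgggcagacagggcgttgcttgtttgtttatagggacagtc

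The deposited values are FPKM, fragments scaled to transcript length and to the mapped fragments of the library, which allow levels to be compared between genes. Their sums over a library were 728680 to 1036288 in fetuses, 558630 to 628997 in mothers and 546763 to 833499 in offspring. Comparisons used log2(FPKM + 1) after scaling each library by its median ratio to the others, with limma and Benjamini-Hochberg adjustment over all genes tested, and an adjusted p under 0.05 counted as a call. The added 1 understates differences of genes near 0. One library stood apart, replicate 1 at ZT0 of the high-fat offspring of control mothers, with 8554 genes above 0 against at least 15074 in every other library and a read depth of 0.044 of that of a fetal reference library. It listed Klf1 and Epor at 0, so results on that arm are also given without it. In bulk liver, fewer cells of a type and less RNA per cell cannot be told apart.

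All 9 members were abundant in all 24 fetal livers. The most abundant was Hbb-bs, at 1076 ± 354 FPKM (SD, n = 24), the 93rd highest mean of all genes. Alas2 followed with 526 ± 135 FPKM and Slc4a1 with 494 ± 146, a pair whose ranges overlapped. Ermap at 115 ± 39.2, Klf1 at 107 ± 39.9 and Rhag at 107 ± 30.9 formed a middle tier that did not differ beyond its spread. Below them lay Epb42 at 66.3 ± 23.3, Gata1 at 62.8 ± 19.9 and Epor at 47.7 ± 18.3, again with overlapping ranges. The receptor was thus the least abundant of the members and the band 3 exchanger the most abundant of the membrane genes. Between fetal livers the levels varied by 2.2 times (Alas2) to 3.48 times (Hbb-bs) from lowest to highest.

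**Figure D1:**
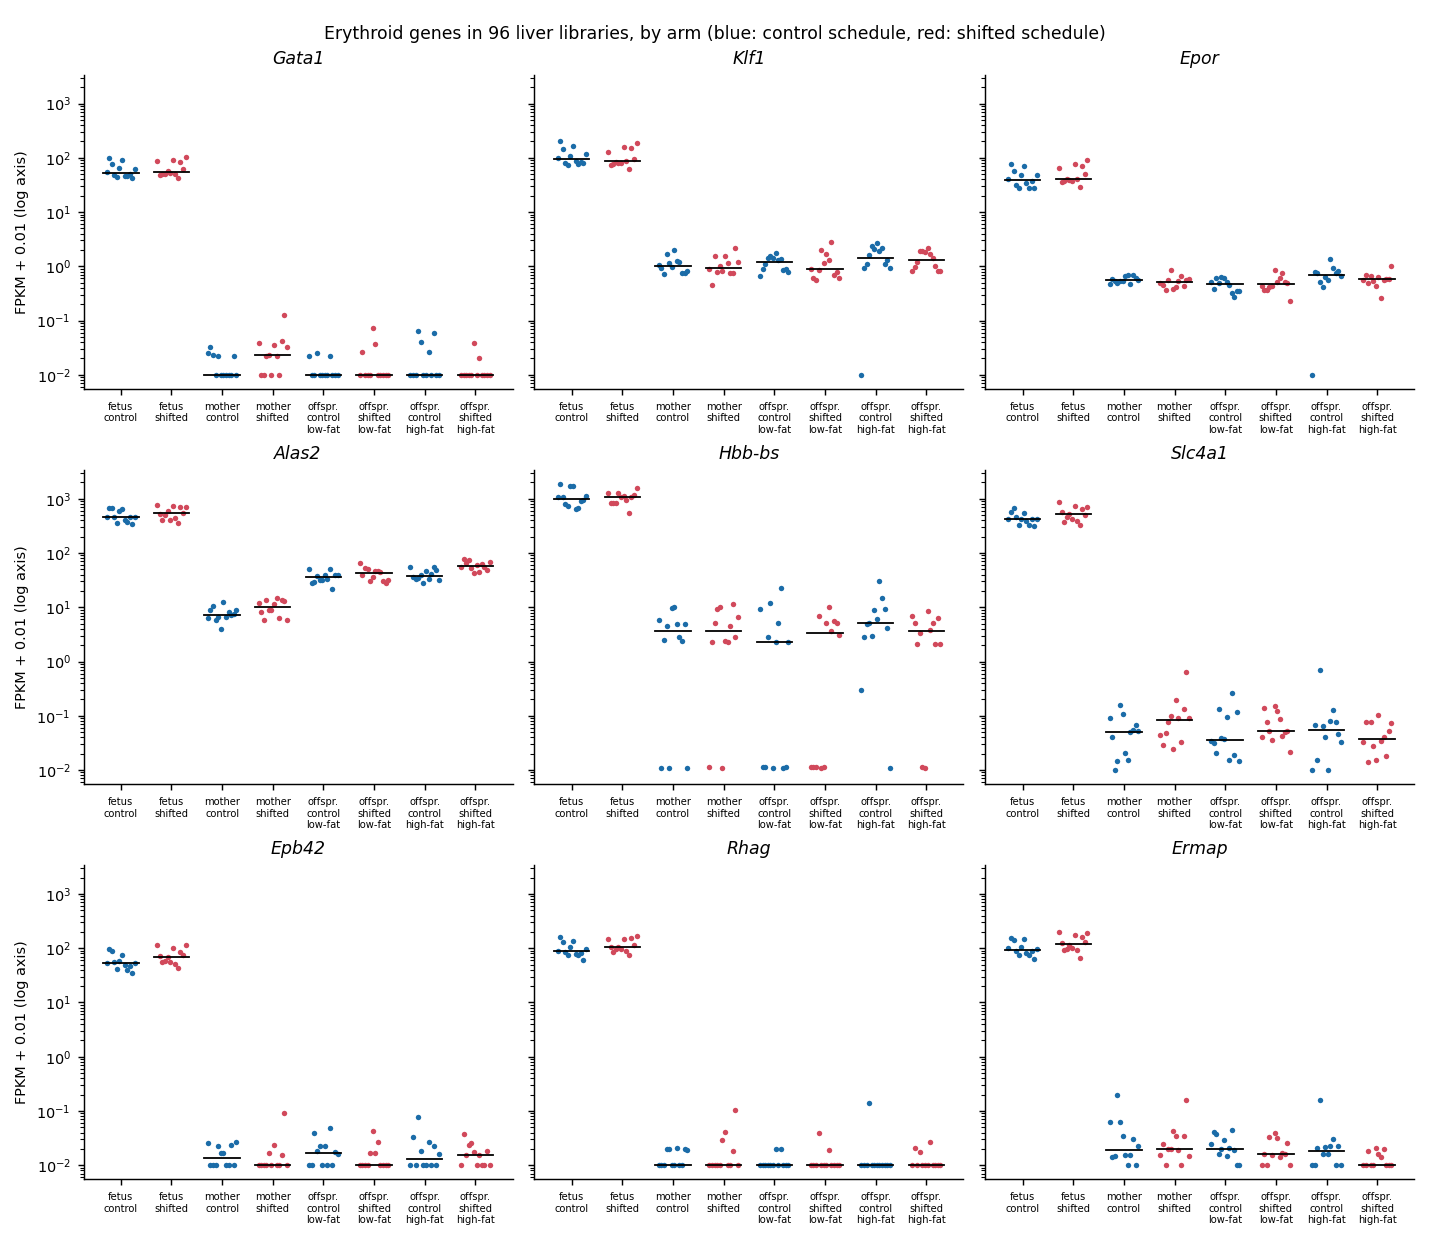
Level of each member in every library, as FPKM + 0.01 on a log axis, for the 8 arms (12 points each, blue for control and red for shifted mothers, bars at the medians). All 24 fetal livers lie above all 72 adult livers in each of the 9 panels, and Alas2 and Hbb-bs are the members listed at the highest levels in adults.

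The regulators and the receptor were at most 2.75 FPKM in every adult liver. Gata1 ranged from 42.1 through a median of 52.9 to 100.7 FPKM in control fetuses and from 42.5 through 54.1 to 105.1 in shifted fetuses. In the 72 adult livers it never exceeded 0.117 and was listed at 0 in 47. Against control mothers the difference for Gata1 was 5.43 on the log2 scale (SE 0.0718, adjusted p = 7.21e-65, limma). Gata1 and Epor passed the filter on low values through the fetal libraries alone and so had to differ. Their p-values are descriptions. Klf1 ranged from 73.5 through 93.6 to 204 FPKM in control fetuses and from 62.3 through 86.2 to 184 in shifted ones. Unlike Gata1 it kept a low level in adults, with a median of 1.1 FPKM over 72 livers and a highest value of 2.75. Klf1 was 5.11 log2 units higher in control fetuses than in control mothers (SE 0.12, adjusted p = 5.60e-49). The receptor Epor ranged from 27.7 through 38.9 to 76.9 FPKM in control fetuses and from 28.8 through 41.0 to 90.3 in shifted ones, against 0 to 1.37 in adults. Epor was listed at 0 in 1 adult liver, and its difference from control mothers was 4.26 log2 units (SE 0.105, adjusted p = 1.35e-47). With a pseudocount of 0.1 it was 5.37, beside 5.35 for Alas2.

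Of the genes of heme and globin, Alas2 kept an adult level in every liver and Hbb-bs in most. Alas2 ranged from 346 through 458 to 687 FPKM in control fetuses and from 355 through 541 to 762 in shifted fetuses. It was above 4 FPKM in every adult liver, and was 5.20 log2 units higher in control fetuses than in control mothers (SE 0.135, adjusted p = 3.18e-46). Hbb-bs ranged from 636 through 1010 to 1869 FPKM in control fetuses and from 537 through 1062 to 1584 in shifted ones, and stood 7.56 log2 units above control mothers (SE 0.446, adjusted p = 2.83e-25). Its level is uncertain, because its coding sequence differs from that of Hbb-bt at 1 of 444 bases and the tables also list the adult beta-globins Hbb-b1 and Hbb-b2, among which the counting could split reads. Hbb-bs held 0.59 to 1.02% of the FPKM of these 3 entries in fetuses. In 18 of the 72 adult livers Hbb-bs was listed under 0.01 FPKM while Hbb-b1 stood at 132.7 to 639.9 FPKM in the same livers. Hbb-bt and Ahsp, the alpha-globin chaperone, are not analysed here. The adult alpha- and beta-globin entries together took 23.6 to 47.6% of all FPKM in control fetuses and 23.9 to 43.0% in shifted fetuses, against 0.0568 to 1.11% in adult livers.

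The membrane genes had little or no adult level. Slc4a1 ranged from 309 through 427 to 666 FPKM in control fetuses and from 330 through 522 to 861 in shifted fetuses, against at most 0.701 in adults. It stood 8.23 log2 units above control mothers (SE 0.079, adjusted p = 1.44e-73, limma). The membrane genes passed the filter on low values through the fetal libraries alone and so had to differ, which makes this p-value a description. On this scale members near 0 in mothers rank by their fetal level, so the order of these differences is not an order of FPKM ratios. Epb42 ranged from 34.7 through 53.4 to 98.4 FPKM in control and from 43.0 through 70.3 to 116.0 in shifted fetuses, and was listed at 0 in 38 of 72 adult livers with a highest value of 0.0823. Rhag ranged from 61.3 through 87.8 to 158 FPKM in control and from 75.9 through 104.6 to 167 in shifted fetuses, and was listed at 0 in 55 adult livers. Ermap ranged from 63.6 through 93.1 to 154.5 FPKM in control and from 67.3 through 120.6 to 202 in shifted fetuses, and was listed at 0 in 20 adult livers. These last 3 genes stood 5.36, 6.11 and 6.13 log2 units above control mothers.

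Under the shifted schedule the fetal excess over mothers was 5.45 for Gata1, 4.98 for Klf1, 4.44 for Epor, 4.90 for Alas2 and 7.17 for Hbb-bs on the log2 scale. For the membrane genes it was 8.37 (Slc4a1), 5.67 (Epb42), 6.30 (Rhag) and 6.41 (Ermap). Against low-fat offspring it spanned 3.16 (Alas2) to 8.21 (Slc4a1) in the control arms and 3.13 to 8.44, for the same genes, in the shifted arms. In each of the 4 comparisons all 9 members were called higher, where 42.7%, 42.5%, 42.8% and 43.4% of the 12524 genes tested were. The arms overlapped for no member, but the share of all genes without overlap was not taken. Of the members 6 (all except Klf1, Alas2 and Hbb-bs) passed the filter on low values through the fetal libraries alone and so had to differ, and the count is a description. The members' median was 5.43 in the control and 5.67 in the shifted comparison with mothers, beside 0.04 over all genes in each. Without scaling the median of all genes was 0.53 in the control comparison, a shift of 0.49. These comparisons also differ in age and table, and the comparison with offspring in the diet given from weaning age.

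Most other erythroid genes were also higher in fetuses, where 42.7% of all genes tested were called higher. Part of each list except that of heme and iron passed the filter on low values through the fetal libraries alone, 5 of 11 transcription factors, 14 of 16 membrane genes, 3 of 6 globin entries, 4 of 11 late maturation genes and 1 of 8 signalling genes. Such genes had to differ, so the counts are descriptions. Of the transcription factors 11 of 11 tested were higher in control fetuses than in control mothers, led by Nfe2 at 5.82 log2 units, and Tal1, a partner of Gata1, reached 5.13 in the shifted comparison. All 13 genes of heme synthesis and iron uptake were higher, including the mitochondrial iron importer Slc25a37 at 5.29. All 16 genes of the red cell membrane and skeleton were higher, including Rhd at 7.0. All 6 globin entries tested were higher, Hbb-b1 by 7.85 and Hbb-b2 by 8.40, as were 11 of 11 genes of late red cell maturation, with Car2 (carbonic anhydrase 2) at 6.79, Cldn13 at 6.46 and Tspo2 at 6.27. Of 8 genes of erythropoietin signalling tested, 5 were higher and 2 lower in the control comparison (5 and 0 in the shifted), the former including the kinase Pim1 at 3.25 and the stem cell factor receptor Kit at 1.42. List medians ran from 0.73 (erythropoietin signalling) to 5.48 (globins), beside 0.04 over all genes.

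Genes of other cell types and of cell division differed between the same livers, against the same 42.7% of all genes called higher. Through the fetal libraries alone passed 5 of 8 granulocyte, 4 of 7 megakaryocyte, 1 of 4 progenitor, 1 of 3 lymphocyte, 2 of 7 hepatoblast and 1 of 11 cell cycle genes tested. All 8 granulocyte and myeloid markers were higher in control fetuses, with S100a9 at 8.72 log2 units, and their summed level was 4503 to 9860 FPKM in fetuses against at most 30.95 in adults. All 7 megakaryocyte markers (Pf4 at 5.59), the 4 progenitor markers tested of 7 listed (Myb at 2.88) and the 3 lymphocyte markers tested of 7 listed (Cd79a at 2.76) were higher too. Of 12 macrophage markers 10 were higher, led by Vcam1 at 3.15, and 2 lower. All 11 cell cycle genes were higher, with Mki67 at 5.38. Of the 7 hepatoblast markers, which include albumin, the fetal hepatocyte product Afp stood 12.73 log2 units higher. The summed level of the 7 was lower in control fetuses than in control mothers, with medians of 75900 and 124500 FPKM. All 8 genes of mature hepatocytes were lower, with Tdo2 at -8.28 and Tat at -7.47. Of the 7 endothelial markers 4 were higher and 2 lower in the control comparison, and 6 and 1 in the shifted one. The part of these cell types in the members' values was not tested.

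Within the fetal livers the members rose and fell together. Over the 24 libraries, on the scaled log2 values, Pearson's r with Gata1 was 0.975 for Epor, 0.952 for Klf1, 0.934 for Rhag and 0.882 for Ermap. It was 0.874 for Alas2, 0.854 for Epb42, 0.770 for Slc4a1 and 0.755 for Hbb-bs. Spearman's rho ran from 0.741 (Slc4a1) to 0.924 (Epor). Each of the 8 relations, and each of 9 with albumin below, passed a two-sided permutation test with adjusted p under 0.05 over the family of 17. The share of all genes that would pass the same test was not taken, so the count does not set the members apart. The adjusted p was 1.31e-05 for Epor with Gata1, where 1e-05 is the smallest raw p that 100000 permutations can give. Without the 2 libraries farthest from the median of Gata1, r lay between 0.655 (Hbb-bs) and 0.965 (Epor). Within control fetuses r lay between 0.766 (Slc4a1) and 0.982 (Epor), and within shifted fetuses between 0.707 (Hbb-bs) and 0.982 (Epor).

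The order of Gata1 had its widest step on the scaled log2 scale between 18 livers of 42.1 to 75.4 FPKM and 6 of 84.4 to 105.1. Below the step r with Gata1 was 0.904 for Epor, 0.828 for Klf1, 0.751 for Hbb-bs and 0.75 for Rhag, 0.723 for Alas2, 0.681 for Ermap, 0.570 for Epb42 and 0.499 for Slc4a1. Among the 6 above it r was 0.875 for Epor, 0.870 for Klf1, 0.748 for Hbb-bs, 0.695 for Rhag and 0.491 for Epb42. It was 0.153 for Alas2, 0.184 for Ermap and -0.175 for Slc4a1. The values of Epor, Klf1, Hbb-bs, Rhag and Epb42 lay closer between the sides than those of Alas2, Ermap and Slc4a1, which were lower among the 6. A number of 6 leaves r imprecise for every member, and a split on Gata1 narrows its range on each side. Likeness or difference between the sides was not tested. The high livers came from both schedules: control ZT0 replicate 2 (100.7) and ZT12 replicate 1 (91.9), and shifted ZT0 replicate 1 (86.1), ZT12 replicate 1 (91.1) and ZT18 replicates 1 (84.4) and 3 (105.1).

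**Figure D2:**
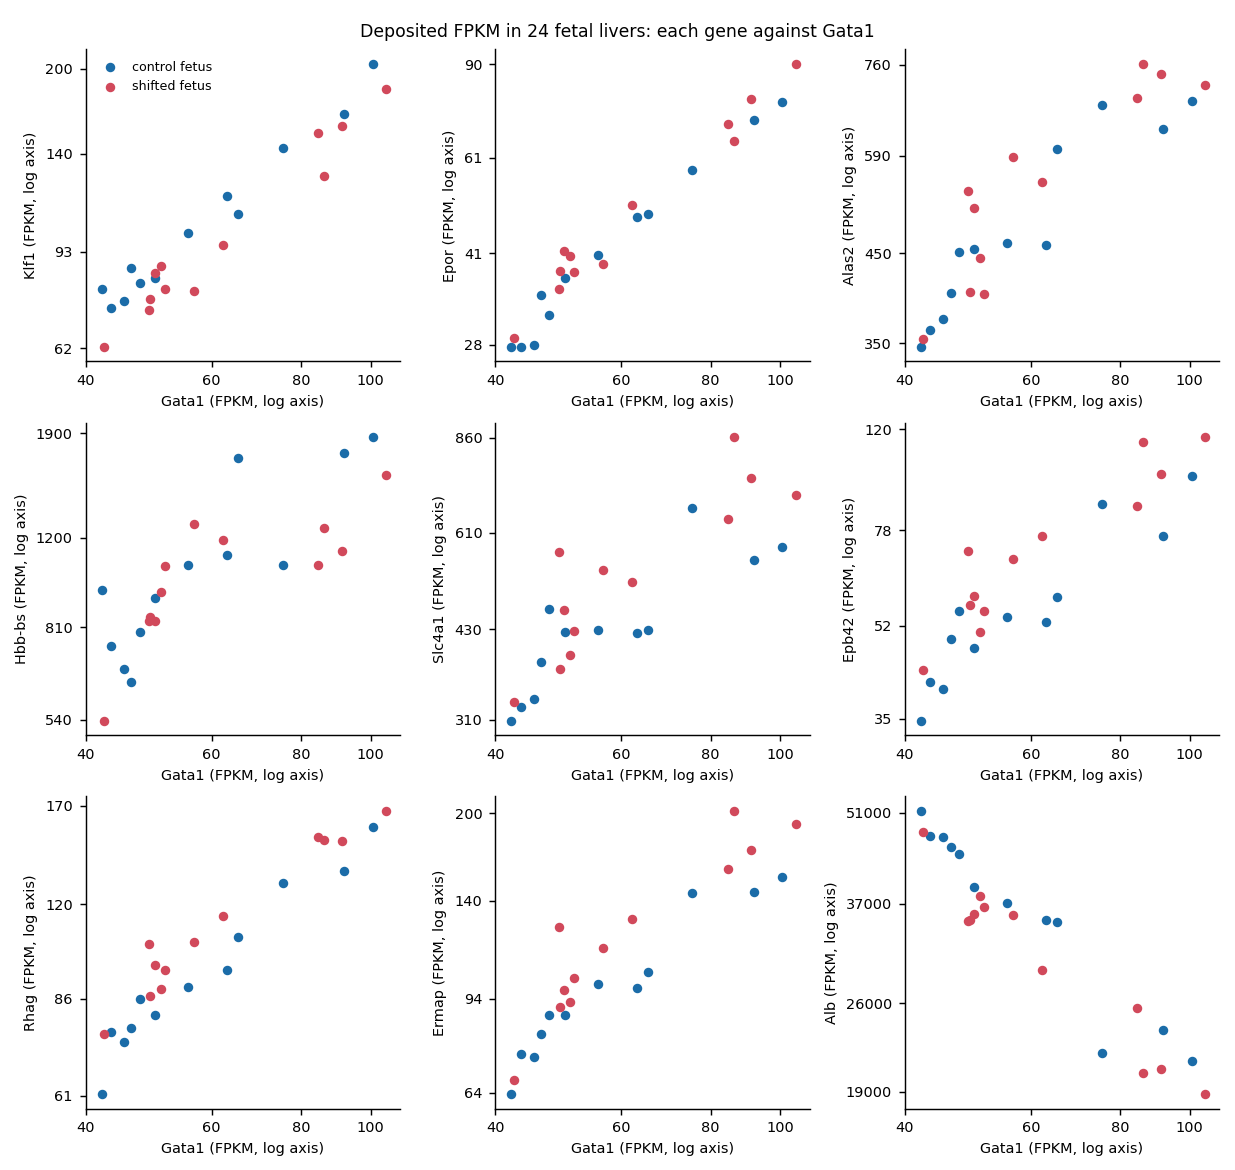
Levels of the 8 other members and of albumin (Alb) against Gata1 in the 24 fetal livers, in FPKM on log axes, blue for control and red for shifted mothers, 1 point per library. The members rise with Gata1, closest for Epor and Klf1, and albumin falls. For these 2 genes r was 0.984 and 0.963 on log2 of the deposited values, and 0.975 and 0.952 on the scaled log2 values of the text.

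Albumin, the main secreted protein of hepatocytes, ran the other way. Its r was -0.921 with Ermap, -0.918 with Epb42, -0.908 with Rhag, -0.906 with Epor, -0.886 with Alas2, -0.877 with Slc4a1, -0.870 with Gata1 and -0.790 with Klf1. With Hbb-bs it was -0.566 (permutation adjusted p = 0.00401). Spearman's rho ran from -0.569 (Hbb-bs) and -0.592 (Klf1) to -0.954 (Epb42). Among the 18 livers below the Gata1 step r with albumin ran from -0.328 (Hbb-bs) and -0.49 (Klf1) to -0.84 (Epb42). Among the 6 above it r ran from -0.0276 (Klf1) and -0.159 (Hbb-bs) to -0.651 (Epb42), imprecise at that number. FPKM values are relative to all mapped fragments of a library, and globins alone take a large part of the FPKM, so opposite movement of members and albumin cannot be told apart from that constraint. Single livers show the spread. The liver lowest in Gata1, control ZT18 replicate 2 with 42.1 FPKM, listed albumin at 51420, the gluconeogenic enzyme G6pc at 73.8, the urea cycle enzyme Cps1 at 201.9, embryonic Hbb-y at 6.61 and Mki67 at 40.3 FPKM. The liver highest in Gata1, shifted ZT18 replicate 3 with 105.1 FPKM, listed albumin at 18840, G6pc at 1.81, Cps1 at 33.5, Hbb-y at 39.1 and Mki67 at 183.3 FPKM. Afp was close in both, at 13530 and 12750 FPKM. Over all fetuses the embryonic globins ranged from 5.23 to 79.9 FPKM (Hbb-y) and from 3.82 to 27.4 (Hba-x). The part of these markers in the members' spread was not tested.

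By the likeness of their pattern, measured as Pearson's r with the mean of the members over the 24 fetal livers after the arm and time means were removed, the nearest other genes included Rab3il1 (0.990), Abcb10 (0.989), Pigq (0.988) and Gid8 (0.988). Others were Mafk (0.987), Lmo2 (0.986), Aurka (0.986), Trim10 (0.986) and Tstd2 (0.984). Of these 9 genes, Abcb10, Lmo2 and Trim10 were on the erythroid lists already, and the other 6 were not. The members' own r with that mean, to which each contributes, ran from 0.984 (Rhag) and 0.977 (Gata1 and Ermap) to 0.878 (Slc4a1) and 0.789 (Hbb-bs). Rab3il1 stood at 27.0 to 81.6 FPKM. These are descriptions over points that share libraries.

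The schedule of the mother was compared next in the fetal livers themselves. None of the 9 members was called by limma, where 3.65% of 11999 genes were. An unadjusted p under 0.05 was reached by 1 member and by 21.7% of all genes tested. Epb42 had the largest difference, 0.32 log2 units higher in shifted fetuses (95% interval 0.05 to 0.60, adjusted p = 0.162), with 8 of 12 shifted livers above the control mean of their time. Ermap differed by 0.28 (adjusted p = 0.231, 9 of 12), Slc4a1 by 0.23 (adjusted p = 0.272, 9 of 12) and Rhag by 0.21 (adjusted p = 0.292, 8 of 12). The medians of all 4 membrane genes were thus higher in shifted fetuses, with overlapping ranges. Epor differed by 0.17, Alas2 by 0.13 and Gata1 by 0.05, while Hbb-bs differed by -0.08 and Klf1 by -0.12, with 3 of 12 shifted livers above the control mean for Klf1. The intervals leave room for differences of up to 0.60 (Epb42), 0.57 (Ermap) and -0.44 (Klf1 and Hbb-bs). The members' median was 0.17, beside -0.01 over all genes.

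**Figure D3:**
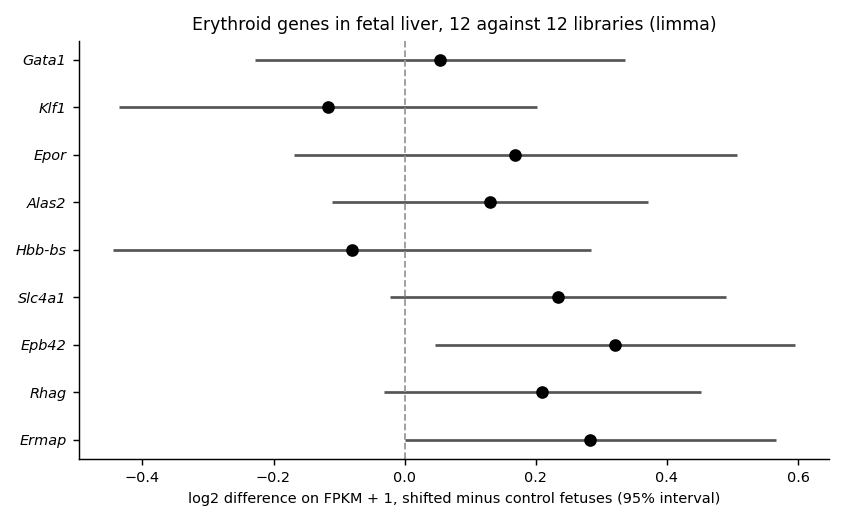
Difference between fetuses of shifted and of control mothers for each member, as a log2 difference with its 95% interval from limma (12 against 12 libraries). The membrane genes Epb42, Ermap, Slc4a1 and Rhag have the largest estimates, 0.32 to 0.21, and no member passed the adjusted threshold.

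Of the other erythroid genes 1 was called. Cpox, an enzyme of the heme pathway held by the heme list and the late maturation list, was 0.47 log2 units higher in shifted fetuses (SE 0.108, adjusted p = 0.0217, limma), the only call among 13 and 11 tested genes. No gene was called among 12 transcription factors, 16 membrane genes (median 0.24), 6 globin entries and 8 genes of erythropoietin signalling. In the other cell type lists Gp1bb of the megakaryocyte list was called, at -0.56 (adjusted p = 0.0203). None was called among 8 granulocyte, 12 macrophage, 3 lymphocyte, 7 hepatoblast, 7 mature hepatocyte and 7 endothelial genes or 11 cell cycle genes. Albumin differed by -0.28 (adjusted p = 0.39). Xist, which females express, was above 1 FPKM in 4 of 12 control and 6 of 12 shifted fetuses, in 0 of 3 shifted livers at ZT0 and in 3 of 3 at ZT18. With Xist status as a term in the fit, Epb42 differed by 0.32 (adjusted p = 0.199).

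Time of day gave no call for any member in fetuses. The limma F test over the 4 times called 0 of 11999 genes in control fetuses (765 at an unadjusted p under 0.05), 0 in shifted fetuses (466) and 0 for the difference between schedules (416), and 0 members reached an unadjusted p under 0.05 in each. The groups of 3 overlapped widely: Gata1 in control fetuses was 77.3 ± 22.6, 52.1 ± 11.7, 61.2 ± 26.6 and 51.7 ± 10.6 FPKM at the 4 times in order (SD, n = 3 each). In shifted fetuses Gata1 was highest at ZT18, at 83.9 ± 21.5 FPKM, and lowest at ZT6, at 52.7 ± 3.48. The difference between fetus and mother was also compared between schedules, where 1.26% of genes and 0 of 9 members were called by limma. An unadjusted p under 0.05 was reached by 15.7% of all genes tested and by 3 members. These were Epb42 at 0.31 (adjusted p = 0.0843), Ermap at 0.29 (adjusted p = 0.136) and Rhag at 0.19 (adjusted p = 0.264). Leaving out single fetal libraries called up to 2 of them, among these Epb42 with an adjusted p as low as 0.022. Mothers listed Epb42, Ermap and Rhag at no more than 0.0823, 0.187 and 0.0932 FPKM, so this comparison largely repeats the fetal one. Its fit pools the spread over all libraries, including adult ones near 0 for these genes. The SE for Epb42 was 0.0984 here, against 0.131 in the fetal fit. The smaller p-values and the calls without single libraries are therefore descriptions and no separate evidence on schedule.

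Among adult livers Alas2 was the member called between mothers and low-fat offspring. It ranged from 4.01 through 7.34 to 12.4 FPKM in control mothers and from 5.81 through 10.3 to 14.5 in shifted mothers. In low-fat offspring it ranged from 21.6 through 35.4 to 51.7 FPKM after control and from 28.3 through 42.1 to 65.5 after shifted pregnancies. No mother reached the lowest of the offspring. The difference between mothers and low-fat offspring was -2.04 log2 units on the control schedule (SE 0.135, adjusted p = 4.14e-21, limma) and -1.77 on the shifted one (adjusted p = 3.38e-18), where 45.3% and 30.4% of genes were called. Alas2 was the only member called in either comparison, and no other member reached an unadjusted p under 0.05. Of all genes tested 51.3% and 39.2% reached it. Mothers and offspring differ in sex, age, pregnancy and diet, which cannot be told apart here.

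Other red cell genes did not follow one direction between these adults. Tfrc, the transferrin receptor that brings iron into red cell precursors and many other cells, was higher in mothers, by 1.87 log2 units on the control schedule (adjusted p = 8.42e-10) and 1.97 on the shifted one (adjusted p = 1.97e-10, limma). Of the 13 heme and iron genes, Alas2 and Tfrc included, 1 was higher and 5 lower in control mothers, and 2 higher and 4 lower in shifted mothers. Hbb-b1, the most abundant of the adult beta-globin entries, had a median of 228 FPKM in control mothers and 260.0 in control low-fat offspring, a difference of -0.58 log2 units (adjusted p = 0.0696). On the shifted schedule the difference for Hbb-b1 was -0.23 (adjusted p = 0.563). Per 1000 FPKM of Hbb-b1, the median of Alas2 was 29.5 in control and 31.3 in shifted mothers, 128 and 98.2 in the corresponding low-fat offspring, and 5.62 and 6.33 in the fetuses. Slc25a37 was lower in mothers on the control schedule, at -0.62 (adjusted p = 1.06e-05), and differed by -0.28 on the shifted one (adjusted p = 0.0637). Alas1, the form of the enzyme that all cells use, went the other way, 0.96 higher in control mothers (adjusted p = 0.00263) and 0.73 higher in shifted mothers (adjusted p = 0.032). Alas2 lies wholly within the span of Apex2 on the opposite strand. The library kit marks strand, but the setting used in counting is not given in the sources used here, and Apex2 differed by -0.16 (adjusted p = 0.158) and -0.39 (adjusted p = 0.000507) in the same comparisons.

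Between diets Alas2 was called in offspring of shifted mothers. In these offspring Alas2 ranged from 42.8 through 57.7 to 76.7 FPKM on the high-fat diet, against the low-fat values above, and 11 of 12 high-fat livers exceeded the low-fat mean of their time. The difference was 0.43 log2 units (SE 0.12, adjusted p = 0.00849, limma), where 22.6% of genes were called, and Alas2 was the only one of 3 members tested that was called. In offspring of control mothers high-fat values ran from 28.6 through 37.7 to 55.1 FPKM, a difference of 0.32 (adjusted p = 0.0678, 10 of 12). There 14.4% of genes and 0 of 3 members were called. All 3 had an unadjusted p under 0.05, as did 31.1% of all genes tested. Without the shallow library Klf1 was called in that comparison, 0.33 higher on the high-fat diet (adjusted p = 0.00323, against 0.24 and 0.0798 with it), and Alas2 was not (0.25, adjusted p = 0.123). Leaving out single libraries gave 0.25 to 0.40 for the Alas2 difference and called Alas2 in 5 of 24 fits. The iron importing receptor Tfrc (0.72, adjusted p = 0.00287) and Cpox (0.58, adjusted p = 0.000539) were also higher on the high-fat diet in offspring of shifted mothers, while Hbb-b1 differed by -0.59 (adjusted p = 0.164). In offspring of control mothers Cpox went the other way, at -0.43 (adjusted p = 0.0151), and Tfrc differed by -0.19 (adjusted p = 0.473). Apex2, the gene opposite Alas2, was 0.55 higher there on the high-fat diet (adjusted p = 0.00173) and differed by 0.06 in offspring of shifted mothers (adjusted p = 0.751), and its part in the Alas2 values was not tested.

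Between offspring of shifted and control mothers on the high-fat diet Alas2 differed by 0.26 (adjusted p = 0.0666, 11 of 12). There 48% of genes and 0 of 3 members were called by limma. An unadjusted p under 0.05 was reached by 2 members and by 54.4% of all genes tested. Without the shallow library the Alas2 difference was 0.34 (adjusted p = 0.0142), and with values as deposited 0.55 (adjusted p = 0.000389). Klf1 differed by -0.20 (adjusted p = 0.0909) and was called without the shallow library, at -0.29 (adjusted p = 0.00203), the opposite direction to Alas2. On the low-fat diet Alas2 differed by 0.15 (adjusted p = 0.856), where 0.00921% of genes and no member were called. No member reached an unadjusted p under 0.05, which 7.18% of all genes tested did. The difference between these effects of schedule, tested after the values had been seen, was 0.12 for Alas2 (adjusted p = 0.646), where 23.8% of genes and no member were called. In mothers Alas2 was 0.42 higher on the shifted schedule without passing the threshold (adjusted p = 0.089, 9 of 12). There 8.29% of genes and 0 of 3 members were called. An unadjusted p under 0.05 was reached by 1 member and by 28.1% of all genes tested.

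**Figure D4:**
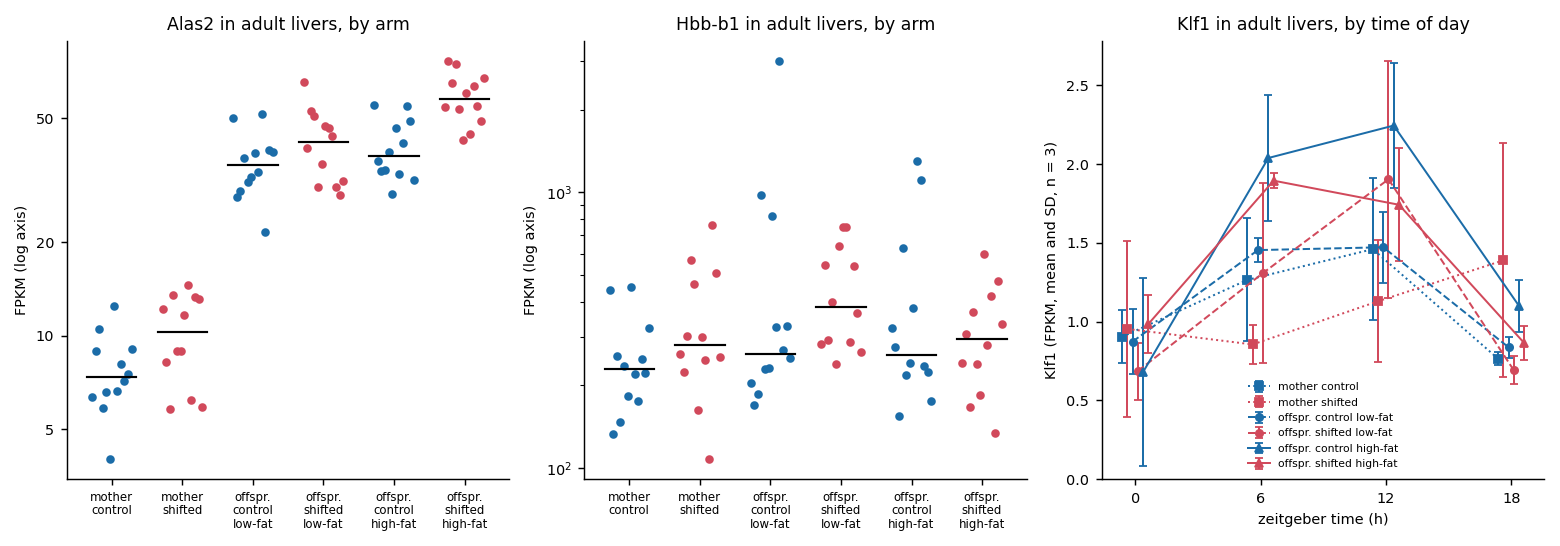
Alas2 and Hbb-b1 in each library of the 6 adult arms with bars at the medians, and Klf1 by zeitgeber time in the same arms as mean ± SD (n = 3 libraries per point), all in FPKM. Alas2 is lowest in mothers (medians 7.34 and 10.3) and highest in high-fat offspring of shifted mothers (57.7), Hbb-b1 does not follow that order, and Klf1 is highest at ZT6 and ZT12 in the 4 offspring arms.

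The relation of Alas2 to Hbb-b1 in adult livers was examined after the values had been seen. Over 24 mothers r was 0.537 (rho 0.478, permutation adjusted p = 0.0131 for r over 2 relations), 0.385 without the 2 farthest libraries, and 0.38 and 0.509 within the control and shifted arms. Over 48 offspring r was 0.147 (rho 0.0851, permutation adjusted p = 0.32), with 0.637, 0.0789, 0.129 and 0.202 within the 4 arms. After the mean of each arm and time was removed, r over the 48 offspring was 0.337 (permutation adjusted p = 0.0323), and 0.226 without the 2 farthest libraries. The order of Alas2 across adult arms was thus not the order of Hbb-b1, whose median was 384 FPKM in low-fat and 293 in high-fat offspring of shifted mothers.

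At its low adult level Klf1 was called by time of day in high-fat offspring of control mothers and low-fat offspring of shifted mothers. These tests were chosen after the values had been seen. In high-fat offspring of control mothers the ZT0 livers listed Klf1 at 0, 0.920 and 1.11 FPKM and the ZT6 livers at 1.61, 2.41 and 2.1 FPKM. The ZT12 livers listed it at 2.69, 1.93 and 2.12 FPKM and the ZT18 livers at 1.08, 1.27 and 0.940. All 6 livers at ZT6 and ZT12 lay above all 6 at ZT18 and ZT0, but the share of all genes with such a separation was not taken. The limma F test gave an adjusted p of 0.000523 (0.00178 without the shallow library), where 16.1% of genes and 1 of 3 members were called. In low-fat offspring of shifted mothers Klf1 averaged 0.685 ± 0.181, 1.31 ± 0.572, 1.90 ± 0.751 and 0.690 ± 0.0894 FPKM at the 4 times (SD, n = 3; adjusted p = 0.00278), where 38.1% of genes and 2 of 3 members were called. A pseudocount of 0.1 ended that call for Klf1 (adjusted p = 0.0577). The other member called there was Hbb-bs (adjusted p = 0.0273), which was under 0.01 FPKM in all 3 livers at ZT0 and 2 of 3 at ZT6 and at 3.02 to 10.2 FPKM in the others, and which lost its call without any 1 of 4 libraries (adjusted p up to 0.0655). Klf1 was not called in low-fat offspring of control mothers (adjusted p = 0.198, with 9% of genes called), high-fat offspring of shifted mothers (adjusted p = 0.165, 2.41%), control mothers (adjusted p = 0.41, 3.03%) or shifted mothers (adjusted p = 0.88, 2.08%).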

How the data were processed

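Liver poly(A) RNA was sequenced from stranded libraries, per the labels' protocols. The deposited values are FPKM, made by the authors with TopHat2 2.1.1 and Cufflinks 2.2.1 on mm10, per the submitters' processing notes (annotation, filters and strand setting: not given in the sources used here). Of 24883 table entries, 817 that share 280 symbols were left out, which leaves 24066 genes, and 0 columns were unused. The members and lists were chosen with earlier results of these data known.

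Values were scaled by median of ratios within a fit, filtered at 1 FPKM in at least 3 libraries and fitted as log2(FPKM + 1) with limma 3.58.1 in R 4.3.3, 1 mean per arm and time, with Benjamini-Hochberg adjustment over 12524 (all libraries), 11999 (fetuses), 10387 (mothers) or 10859 (offspring) genes. Gata1, Epor and the membrane genes did not pass the filter within mothers or offspring. Fits were tested on simulated data. Correlations used 100000 permutations (Python 3.11.15). FPKM holds no counts, so no counting interval is given, and relative depth was read from the steps of low values. Named are all members, up to 3 called genes of largest change per list in the fetal comparisons, and the 10 genes most like the members, except genes not reported here; genes named beside Alas2, beside albumin or in single livers were chosen after their values were seen. Alternatives were another pseudocount, no filter, no or upper quartile scaling, scaling without the erythroid and cell cycle lists, fewer arms in the fit, a replicate block, Xist status, cosine terms and leaving out each library.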

Additional observations from a re-analysis of the deposited data

Results flagged for a closer look

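Of the genes named beside Alas2, 3 had a schedule effect that differed between the diets of the offspring by the limma test of that difference, which was run after the values had been seen. The shifted minus control difference of Cpox was 1.01 log2 units higher on the high-fat than on the low-fat diet (adjusted p = 0.000264), with 0.78 on the high-fat diet and -0.23 on the low-fat diet. That of Tfrc was 0.90 higher (adjusted p = 0.00796), with 0.64 and -0.27. That of Apex2 was -0.49 (adjusted p = 0.025). Without the shallow library the 3 values were 0.997, 0.98 and -0.41, and all 3 genes were called in each of 48 fits that left out 1 library. In the fetal livers Cpox also differed between schedules in its excess over mothers, by 0.72 (adjusted p = 0.0213, limma).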

How the results depend on the processing

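Beside leaving out libraries, 105 of 106 counts of members called kept their result and 1 moved, and of 893 values and correlations of single members 881 kept theirs, 2 were weaker, 4 stronger and 6 reversed. In high-fat offspring, shifted against control, 1 member was called with values as deposited instead of 0, and 0 to 2 when single libraries were left out. Leaving out single libraries gave 0 to 1 calls in high-fat against low-fat offspring of control mothers, and 0 to 2 for the difference of the fetal and maternal contrast between schedules. The 6 reversals were of differences that were never called. With a pseudocount of 0.1 the difference between schedules was -0.15 for Gata1 and -0.20 for Slc4a1, against 0.02 and 0.14 in the main fit. The difference between diets was 0.0179 for Klf1 with that pseudocount. With values as deposited Klf1 gave -0.0223 between mothers and low-fat offspring on the shifted schedule, -0.023 between shifted and control mothers and 0.0039 between diets. The cause was not tested. Leaving out single libraries also crossed 0 for Gata1 (-0.0399 to 0.0855 between schedules, -0.0089 to 0.12 in fetuses), Hbb-bs (-0.14 to 0.0179 in fetuses, -0.32 to 0.20 in low-fat offspring), Klf1 (-0.0507 to 0.0151 between control mothers and offspring, -0.0339 to 0.0721 in mothers), Slc4a1 (-0.0353 to 0.0109, control mothers against offspring) and Epb42 (-0.0038 to 0.013, the shifted pair). Same-numbered fetal libraries of different groups did not deviate together as a rule, with a median r of 0.04 (lowest -0.74). Whether a fetus and a mother of the same number belong together was not tested. The replicate block left 0 members called in fetuses by schedule and 9 against mothers, as without it. With FPKM alone, depth limits what the near-0 adult values can show.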
